A study of Drosophila melanogaster with 8 samples.

Results

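The depletion of CTCF in S2 cells was examined in 1 library labelled as CTCF knockdown and 1 library labelled as its control, which are 2 of the 8 libraries of the series. They were chosen by their genotype labels and share 1 table of values per gene. S2 is a cell line of Drosophila melanogaster, established from embryos at a late stage, that resembles the phagocytic blood cells (hemocytes) of the fly. The labels describe treatment with 400 µg of double-stranded RNA against the targeted gene for 5 days, begun in medium without serum, but do not say what the control cells received. The other 6 libraries are labelled mutant Beaf (3) and wild-type Beaf (3), in a study of S2 lines stably transfected with mutant Beaf under G418 selection and compared with wild type, and are used here only to set levels in context.

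CTCF is a zinc-finger DNA-binding protein found at insulators, the DNA elements that separate neighbouring regulatory domains. In flies it works together with the cofactor Cp190 and shares many sites with other insulator proteins, among them BEAF-32, which binds close to promoters. CTCF is best known in the fly for the boundaries of the bithorax complex, which holds the homeotic genes Ubx, abd-A and Abd-B. Double-stranded RNA is taken up by S2 cells and cut into small RNAs that direct the degradation of matching transcripts.

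The knockdown library held 9267319 reads assigned to genes and the control 10963743, a count recovered from rescaled values. Reads that did not align made up 45.1% of the knockdown library and 18.4% of the control. Levels are given as CPM, the counts scaled to a common total over all reads assigned to genes. Of 15438 genes in the table, 6866 had a value of 50 or more in the larger of the columns and are described below, 5171 were at 0 in both, and 3401 lay in between. There was 1 library on each side, so no difference has a replicate check or a test. Ratios are given as knockdown over control, with 95% intervals from an exact binomial calculation that cover counting error only. The labelled cell type was checked against fixed markers. All 10 hemocyte markers passed the minimum, with a summed level of 14727 CPM in the knockdown and 20069 CPM in the control. The 5 fat body markers summed to 0.755 CPM in the knockdown and 0.492 CPM in the control, with Lsp1alpha and Lsp2 at 0 in both. Markers of other cell types were present. Of 6 muscle markers 4 were matched to values, and Mhc and wupA were not. All 4 passed the minimum, summing to 1066 CPM in the knockdown and 902 CPM in the control. All 5 epithelial markers passed as well, at 628 and 723 CPM. Of 5 gonadal markers 3 were matched, and vas and nos were not. The 3 summed to 132 and 123.4 CPM, and 2 of them passed. Of 8 neuronal markers 7 were matched, and para was not. The 7 summed to 36.0 and 32.2 CPM, 3 of them passed, and elav was at 0 in both libraries.

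CTCF itself was lower in the knockdown library. It had 105 reads (11.3 CPM) there, against 607 reads (55.4 CPM) in the control, which is 4.89-fold lower with a counting interval of 3.97 to 6.07. The level in the knockdown was 20.5% of that in the control. In these bulk samples a loss from some of the cells and a smaller loss from every cell cannot be told apart. The 6 libraries of the Beaf lines, counted in separate tables, held between 24.8 and 42.0 CPM of CTCF, so the knockdown lay below all 7 other libraries and the control above them. Reads from the double-stranded RNA itself would be counted with the gene, and CTCF overlaps the genes qm and asRNA:CR45822 on the other strand in the annotation used here. Of the 6866 genes, 2 had a lower ratio than CTCF, namely CG3358 and sgll.

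Few other genes differed by much. At least 2-fold higher in the knockdown were 37 genes (0.539% of those at the minimum) and at least 2-fold lower were 22 (0.320%), CTCF included. At 1.5-fold the counts were 176 higher (2.56%) and 69 lower (1.00%). Together these were 59 genes at 2-fold (0.859%) and 245 at 1.5-fold (3.57%). The quartiles of all log2 ratios were −0.07 and 0.18, with a median of 0.05. Many of the genes at 2-fold were scarce: 21 of the 59 stayed under 10 CPM in both libraries, and 9 reached 100 CPM in one of them. Those 9 were CG6126, stj and FBgn0085364 among the higher genes, and kst, Hsp68, mt:ND2, Hsp70Aa, Hsp70Ab and Hsp70Bb among the lower ones. Of the 54 that could be placed in the annotation, 23 overlap another annotated gene, and the strand setting of the counting is not given in the sources used here.

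**Figure D1:**
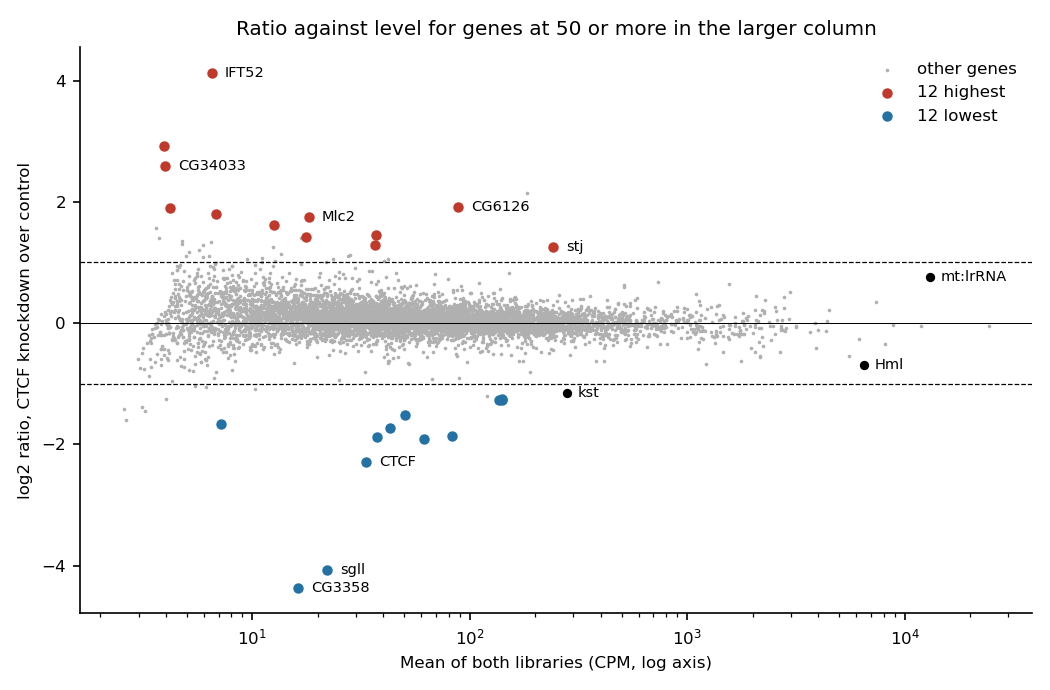
Each point is 1 of the genes at 50 or more in the larger column. The axes are the mean of both libraries in CPM, on a log axis, and the log2 ratio of knockdown over control. Red and blue points are the 12 genes ranked highest and the 12 ranked lowest by the end of the counting interval nearest to 1. Black points are 3 further named genes, and dashed lines mark 2-fold. The cloud narrows as the level rises, and CTCF (−2.29), CG3358 (−4.36), sgll (−4.08) and IFT52 (4.13) stand far outside it.

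The spread between these libraries was set beside that between libraries of 1 genotype of the Beaf lines, at 100 CPM or more in either library. Between knockdown and control 9 of 2116 such genes (0.425%) were 2-fold apart, with an interquartile range of the log2 ratios of 0.19. Between the mutant Beaf libraries numbered 2 and 3, 0 of 1581 genes (0.00%) were, with an interquartile range of 0.16. Between the wild-type Beaf libraries numbered 2 and 3 1 of 1583 genes (0.0632%) was, with an interquartile range of 0.17. Pairs with wild-type Beaf library 1 had 22 of 1565 (1.41%) and 31 of 1584 genes (1.96%) that were 2-fold apart. Pairs with mutant Beaf library 1 had 456 of 1765 (25.8%) and 479 of 1762 (27.2%). The knockdown and its control were thus closer to each other than either library numbered 1 was to its own genotype, and further apart than the closest pairs. The Beaf libraries held 1544063 to 2122627 gene values each, with 85.6% to 94.0% of reads outside annotated features. The CTCF libraries held 9267319 and 10963743 gene reads, so counting error is larger in the Beaf pairs, and the spreads are not directly comparable.

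The 12 highest genes were taken from those with a symbol, ranked by the end of the counting interval nearest to 1 and not by the ratio itself. This ranking can leave out a scarce gene with a higher ratio than some of the 12, such as Npc2b (2.95). IFT52, which encodes a subunit of the intraflagellar transport machinery of cilia, had 114 reads (12.3 CPM) in the knockdown and 8 reads (0.703 CPM) in the control, a ratio of 17.5 (8.27 to 40.0). The Beaf lines held between 0 and 2.47 CPM of it, so the knockdown library stood alone. CG6126 was at 140.0 CPM in the knockdown and 36.9 CPM in the control, a ratio of 3.79 (3.39 to 4.25), and between 10.4 and 23.3 CPM in the Beaf lines. The calcium channel subunit gene stj (straightjacket) was at 340.1 CPM in the knockdown and 143 CPM in the control, a ratio of 2.38 (2.24 to 2.53). It varied widely in the Beaf lines, from 0.942 to 150.4 CPM, all below the knockdown.

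The muscle myosin light chain gene Mlc2 was at 28.1 CPM in the knockdown and 8.37 CPM in the control, a ratio of 3.35 (2.63 to 4.29). piwi, which encodes an Argonaute protein that binds piRNAs in the gonad, was at 18.9 CPM in the knockdown and 6.19 CPM in the control, a ratio of 3.05 (2.29 to 4.09). It stayed between 2.12 and 5.18 CPM in the Beaf lines, and it overlaps SCAR on the other strand. CG6357 was at 54.1 CPM in the knockdown and 19.8 CPM in the control, and Uhg5, a host gene of snoRNAs, at 25.7 and 9.64 CPM. All 4 of these genes were therefore more than 2-fold above their control, and above every Beaf-line library as well. The knockdown was the highest of the 8 libraries for 45.5% of all genes. For CG6357 and piwi the control was above every Beaf-line library too.

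Some of the higher genes were at higher levels in the Beaf lines than in the CTCF control. Glyp, which encodes glycogen phosphorylase, was at 51.9 CPM in the knockdown and 21.2 CPM in the control (ratio 2.44, 2.08 to 2.87), but between 80.5 and 147 CPM in the Beaf lines, so the control was the lowest of the 8 libraries. The gene listed as FBgn0085364, for which no symbol was matched, was at 299.7 CPM in the knockdown and 67.4 CPM in the control (ratio 4.45, 4.10 to 4.83), and here too the control lay below the Beaf lines, at 148 to 500 CPM, and the knockdown within them. By the same interval end it would rank next after IFT52, but the naming rule takes genes with a symbol, and it was singled out after its values were seen. snRNA:U2:34ABa, a spliceosomal RNA gene, was at 6.91 CPM in the knockdown and 0.914 CPM in the control, against 419 to 1471 CPM in the Beaf lines. The remaining genes of the 12 were CG34033 (6.80 CPM in the knockdown and 1.13 CPM in the control), CG33774 (10.6 and 3.02 CPM) and Mtk (6.58 and 1.76 CPM), which encodes the antimicrobial peptide metchnikowin.

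The lowest ratios belonged to a pair of genes that nearly vanished. CG3358 had 14 reads (1.51 CPM) in the knockdown and 341 reads (31.1 CPM) in the control, a ratio of 0.0486 (0.0263 to 0.0826). sgll (sugarlethal), which encodes an enzyme of vitamin B6 metabolism, had 23 reads (2.48 CPM) in the knockdown and 459 reads (41.8 CPM) in the control, a ratio of 0.0593 (0.0372 to 0.0901). In the Beaf lines CG3358 ranged from 11.3 to 21.0 CPM and sgll from 8.66 to 23.8 CPM, so for both genes the knockdown was the lowest and the control the highest of the 8 libraries. CG3358 overlaps mim on the other strand, which was also lower, at 133 CPM in the knockdown and 205.4 CPM in the control. The transcription unit of sgll overlaps CG31473 on its own strand.

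CG12236, which lies next to Act5C on the X chromosome, was at 19.96 CPM in the knockdown and 66.4 CPM in the control, a ratio of 0.301 (0.254 to 0.354), and it overlaps Shmt on the other strand. CG13692 was at 3.45 CPM in the knockdown and 10.97 CPM in the control, and its Beaf-line values of 0.627 to 5.18 CPM were all below the control. The mitochondrial transcript mt:ND2, a subunit of respiratory complex I, was at 79.6 CPM in the knockdown and 192 CPM in the control (ratio 0.414, 0.380 to 0.4502), and between 89.1 and 219 CPM in the Beaf lines. Outside the 12, the spectrin gene kst (karst) was at 173 CPM in the knockdown and 385 CPM in the control, 2.22-fold lower, while the Beaf lines held 471 to 2446 CPM. It was named because it reached 100 CPM.

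**Figure D2:**
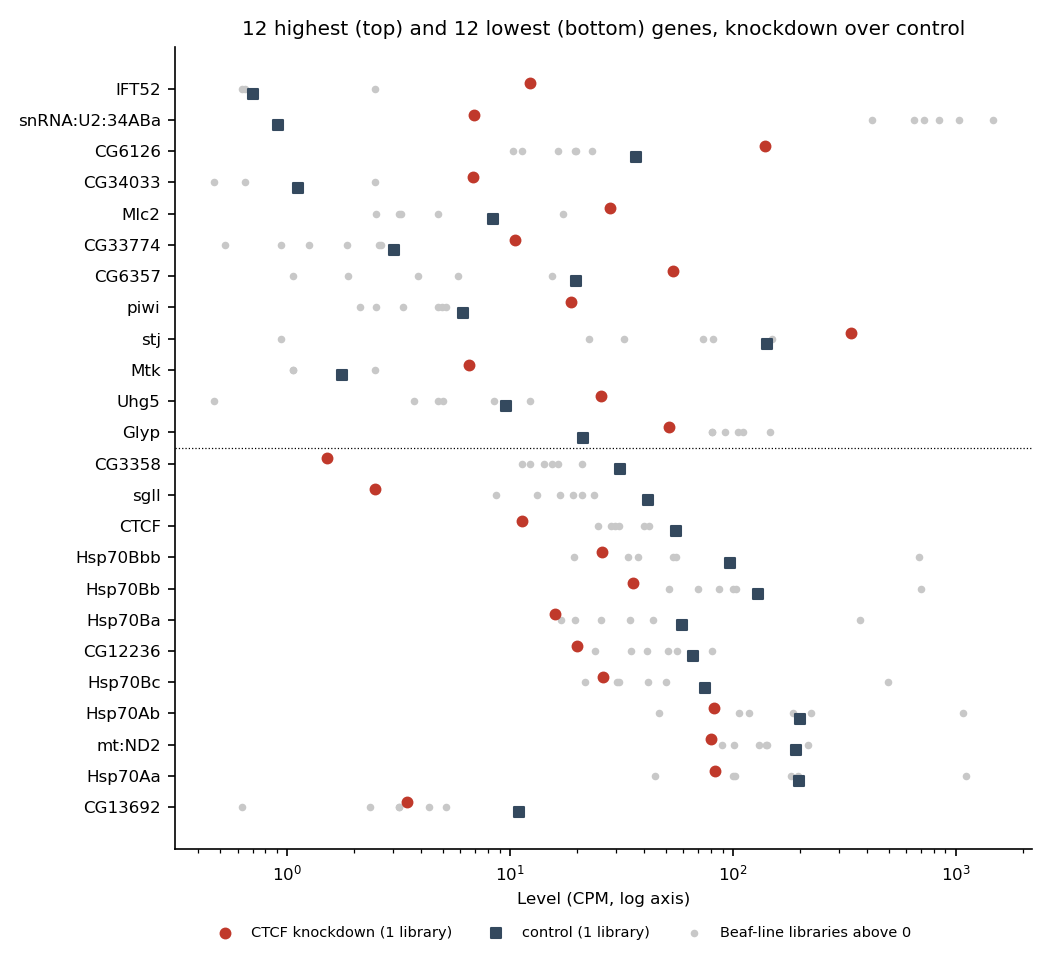
Levels in CPM on a log axis of the 12 genes with a symbol ranked highest and the 12 ranked lowest; red circles are the knockdown library, dark squares the control, and grey points those of the 6 Beaf-line libraries above 0. For IFT52, CG6126, piwi and stj the red circle is the highest of all, and for CG3358, sgll and CTCF it is the lowest while the control is the highest.

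Among the remaining genes at 2-fold, chosen here after their values were seen, were receptors, ligands and adhesion proteins. Egfr, the epidermal growth factor receptor gene, had 16 reads in the knockdown and 49 in the control, and Ser (Serrate), a ligand of Notch, 33 and 80. Ser was far higher in the Beaf lines, at 53.2 to 118 CPM, than in the knockdown (3.56 CPM) or the control (7.31 CPM). Nrt (neurotactin), a cell adhesion protein gene, was higher, at 31.7 CPM in the knockdown and 15.3 CPM in the control, a ratio of 2.07 (1.71 to 2.52). Sid, a stress-induced nuclease gene, had 61 reads in the knockdown and 153 in the control, and Uhg3, another snoRNA host gene, 158 and 92. All of these were under 50 CPM in both libraries.

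Across all 37 higher genes the knockdown was the highest of the 8 libraries in 26, where it was so for 45.5% of all 6866 genes. Across the 22 lower genes it was the lowest in 11, against 3.66% of all genes. The choice of genes by their ratio favours both counts, and the tables were normalised separately.

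Transcripts of other insulator genes were within 1.5-fold of their control levels. Of 18 members at the minimum, CTCF was the only one at 1.5-fold or beyond in either direction, where 3.57% of all genes were. In a list of this size that count does not set the other members apart. The median log2 ratio of the list was −0.09, against 0.05 over all genes. BEAF-32 was at 66.3 CPM in the knockdown and 58.3 CPM in the control, a ratio of 1.14 (1.016 to 1.27). Cp190, the shared cofactor, was at 283 CPM in the knockdown and 309.5 CPM in the control, a ratio of 0.916 (0.870 to 0.964). The Suppressor of Hairy-wing gene su(Hw) was at 121 CPM in the knockdown and 115.2 CPM in the control. mod(mdg4), which encodes BTB-domain cofactors of insulators, was at 305 CPM in the knockdown and 328 CPM in the control.

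The zinc-finger genes pita and ZIPIC, whose products also recruit Cp190, had 72.3 and 21.5 CPM in the knockdown, against 77.5 and 17.5 CPM in the control. The Cp190-binding factors Ibf1 and Ibf2 had 18.3 and 26.4 CPM in the knockdown, against 19.8 and 23.7 CPM in the control. Chro (Chromator) had 214 and 226 CPM, pzg 297 and 326 CPM, Dref 159 and 162 CPM, M1BP 72.8 and 78.4 CPM and Clamp 239 and 233 CPM in knockdown and control. dwg, shep, mod and insv lay between a ratio of 0.795 for dwg and 1.09 for shep. The remaining 3 matched genes were below the minimum and were not compared: Elba2 had 36 reads in the knockdown and 33 in the control, the GAGA factor gene Trl had 5 reads in each library, and Elba1 had none. Trl was also low in the Beaf lines, at 0.942 to 6.81 CPM, and the reason was not tested.

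None of 16 cohesin and condensin genes, 17 Polycomb genes, 20 trithorax and remodelling genes or 12 pausing and elongation genes reached 1.5-fold. Over all genes 3.57% did, so in lists of this size counts of 0 do not set these groups apart. Their median log2 ratios were 0.02, −0.02, −0.02 and −0.09. The widest members were Cap-D2 (log2 ratio −0.23) of condensin, ph-d (−0.31) of the Polycomb complex PRC1, ash2 (−0.32) of the trithorax group and TH1 (−0.25), a subunit of the pausing factor NELF. Nipped-B, the cohesin loader, was at 557 CPM in the knockdown and 537 CPM in the control. For cohesin the sign of the median was negative with TMM scaling (−0.05).

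Homeotic and segmentation genes were nearly silent: 2 of 19 matched members reached the minimum, ey and dpp. The growth factor gene dpp was at 11.98 CPM in the knockdown and 19.0 CPM in the control, a ratio of 0.631 (0.497 to 0.799), and the eye selector gene ey at 19.7 and 19.9 CPM. In the bithorax complex abd-A had 2 reads in the knockdown and 3 in the control, and Abd-B 1 and 2. A change in either of these genes was therefore not detectable at this depth. All 8 dosage compensation genes passed the minimum and none reached 1.5-fold, where 3.57% of all genes did. The noncoding RNA lncRNA:roX1, part of the complex that raises X-linked transcription in males, was at 1259 CPM in the knockdown and 1028 CPM in the control, and the helicase gene mle at 111 and 91.9 CPM.

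More heat-shock genes were at least 2-fold lower than genes of any other list described here. Of 17 members at the minimum 7 were at least 2-fold lower, where 0.320% of all genes were, and none was higher (0.539% of all genes), and these were Hsp68 and the 6 copies of Hsp70, the main inducible chaperone of flies. Since those copies hardly differ in sequence, the split of reads among them is uncertain, and they are not 6 separate measurements. With the copies taken as 1 gene, the members at least 2-fold lower were Hsp70 and Hsp68. Over all genes 17 of 6861 were then at least 2-fold lower. Summed over the copies, Hsp70 had 2498 reads (269.5 CPM) in the knockdown and 8328 reads (760 CPM) in the control, which is 2.82-fold lower (2.69 to 2.95). Hsp68 was at 72.8 CPM in the knockdown and 167 CPM in the control. The Beaf lines ranged widely in summed Hsp70, from 201 to 665 CPM in 5 libraries and at 4444 CPM in mutant Beaf library 1, so the control exceeded those 5 and the knockdown lay among them.

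The other 10 members stayed within 1.5-fold. The small heat-shock genes Hsp23, Hsp26 and Hsp27 were at 86.9, 66.1 and 60.6 CPM in the knockdown, against 89.4, 88.4 and 67.1 CPM in the control. Hsp83, the fly Hsp90, was at 3470 CPM in the knockdown and 3854 CPM in the control, and Hsf, the heat-shock transcription factor gene, at 110.1 and 116 CPM. The median of the list was a log2 ratio of −0.15. None of 17 unfolded protein response genes reached 1.5-fold, where 3.57% of all genes did, with Xbp1 at a ratio of 0.915.

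Hemocyte genes were lower as a group, each by less than 2-fold. Of 24 members at the minimum 21 had a log2 ratio below 0, where 39.0% of all genes did, and the median was −0.28. Hml (hemolectin, a clotting protein) was at 4977 CPM in the knockdown and 8051 CPM in the control, a ratio of 0.618 (0.611 to 0.625). Tig (tiggrin, an integrin ligand) was at 937 CPM in the knockdown and 1492 CPM in the control, a ratio of 0.628. Pxn (peroxidasin) was at 1747 CPM in the knockdown and 2587 CPM in the control, and NimB4, of the Nimrod family, at 71.4 and 102 CPM.

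Receptors of phagocytosis were lower by smaller amounts. eater was at 502 CPM in the knockdown and 601 CPM in the control, NimC1 at 108 and 138 CPM, Sr-CI at 519 and 645 CPM and drpr (draper) at 132 and 169 CPM. crq (croquemort) and He (Hemese) differed least, with 374 and 253 CPM in the knockdown, against 383 and 259.6 CPM in the control. srp and ush, the GATA factor of blood cells and its cofactor, had ratios of 0.928 and 0.931. The phagocyte integrin gene Itgbn went the other way, at 33.1 CPM in the knockdown and 19.0 CPM in the control, a ratio of 1.74 (1.46 to 2.09).

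Matrix and adhesion genes, several of which also stand in the hemocyte list, went in both directions. Of 18 members 12 had a log2 ratio below 0, where 39.0% of all genes did, and 6 above, with a median log2 ratio of −0.32. The laminin genes LanA and LanB1 were at 4527 and 2237 CPM in the knockdown, against 6592 and 3127 CPM in the control. The collagen IV genes Col4a1 and vkg were at 7131 and 3367 CPM in the knockdown, against 9108 and 4483 CPM in the control, and SPARC, a collagen-binding protein, at 1941 against 2521 CPM. The laminin-binding integrin gene mew was at 71.0 CPM in the knockdown and 104 CPM in the control. The matrix metalloproteases were higher, Mmp1 at 53.6 CPM in the knockdown and 36.0 CPM in the control and Mmp2 at 90.6 and 75.4 CPM, as was the integrin gene ItgaPS4 at 10.6 and 5.49 CPM.

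The secreted lipid transfer protein gene Apoltp, from the lipid and fat body lists, was at 1397 CPM in the knockdown and 2155 CPM in the control, a ratio of 0.649 (0.635 to 0.663). Of the marker sums of other cell types given above, the epithelial one was lower in the knockdown and the muscle, gonadal and neuronal ones were higher, and their part in the hemocyte result was not tested.

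**Figure D3:**
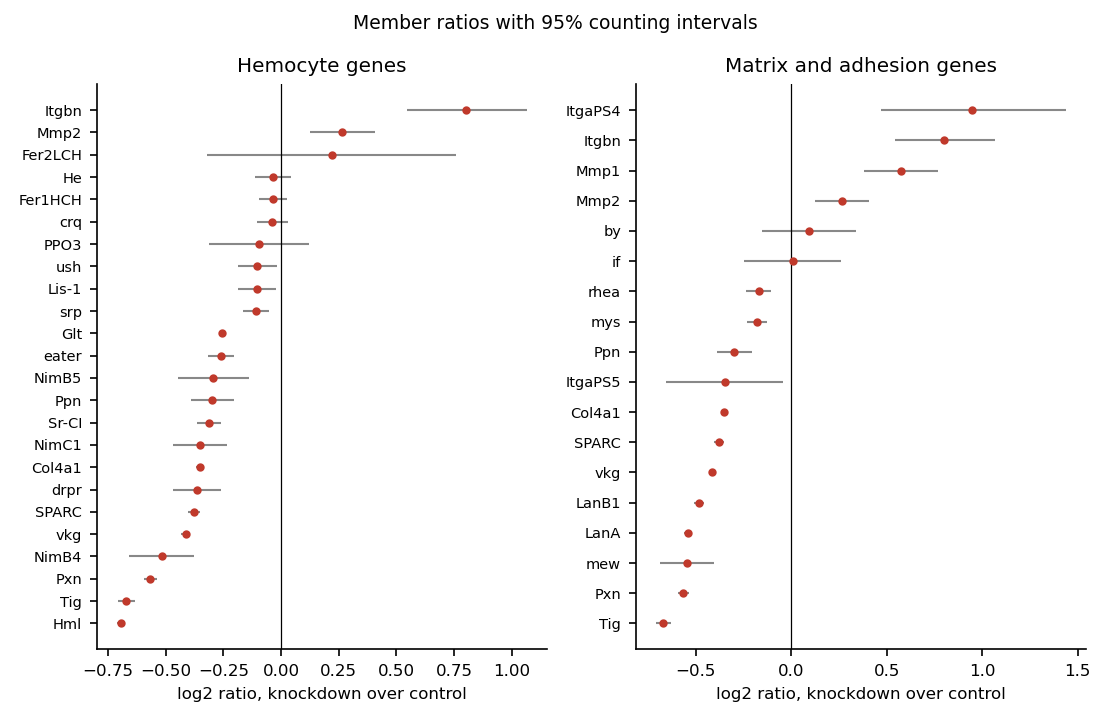
Log2 ratios of knockdown over control for the members at the minimum of the hemocyte list (left) and the matrix and adhesion list (right), with bars for 95% counting intervals. Hml, Tig and Pxn are lowest, and Itgbn and ItgaPS4 are at the upper end.

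Immunity genes had a few scarce members above control. Of 21 members 2 were at least 2-fold higher, where 0.539% of all genes were, and none was lower (0.320% of all genes), with a median log2 ratio of 0.12. These were Mtk, given above, and the attacin gene AttD at 9.28 CPM in the knockdown and 3.66 CPM in the control. CecA1, of the cecropin peptides, was at 8.63 CPM in the knockdown and 4.57 CPM in the control. The Toll ligand gene spz was lower, at 477 CPM in the knockdown and 619 CPM in the control. In the JAK/STAT, JNK and apoptosis list 1 of 21 members reached 2-fold, where 0.859% of all genes did. It was the stress peptide gene TotM, at 18.7 CPM in the knockdown and 8.51 CPM in the control. Stat92E was at 661 and 745 CPM, and the kinase gene hop at 91.0 and 117 CPM.

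Of 19 small RNA and double-stranded RNA pathway genes only piwi reached 1.5-fold, where 3.57% of all genes did, and the median log2 ratio was 0.05. Dcr-2 and AGO2, which cut double-stranded RNA and carry the resulting small RNAs, were at 288 and 973 CPM in the knockdown, against 257 and 931 CPM in the control. AGO3, a piRNA partner, was at 161 CPM in the knockdown and 140 CPM in the control. The gonadal genes aub and bam differed by less than 1.5-fold.

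Growth and housekeeping groups lay near the centre of all genes. Among 80 cytosolic ribosomal protein genes the median log2 ratio was −0.03 and 2 (2.50%, against 2.56% of all genes) were at least 1.5-fold higher, RpL37A at 905 CPM in the knockdown and 564 CPM in the control and RpL36A at 1897 and 1217 CPM. Among 67 mitochondrial ribosomal protein genes the median was 0.14 and 1 (1.49%, against 2.56% of all genes) was at least 1.5-fold higher. It was mRpL41, at 16.6 CPM in the knockdown and 11.04 CPM in the control. Proteasome, replication and mitosis genes had medians of 0.05, 0.06 and −0.06 over 30, 23 and 31 members, and none reached 1.5-fold, where 3.57% of all genes did. The widest were Prosalpha2 (−0.24), Orc6 (0.52) of the origin recognition complex, RnrS (−0.40) of ribonucleotide reductase and the mitotic kinase gene aurA (0.37). None of the 111 replication-dependent histone copies reached 50 in either library.

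Glycolysis genes had a median log2 ratio of 0.16 over 12 members and nuclear oxidative phosphorylation genes 0.11 over 27, and none reached 1.5-fold, where 3.57% of all genes did. With ratios centred by exonic length, which sets the median of all genes to 0, these medians were 0.09 and 0.02, and that of the mitochondrial ribosomal protein genes was 0.02. Tpi (triose phosphate isomerase) was at 45.2 CPM in the knockdown and 31.3 CPM in the control, and Eno (enolase) at 355 and 292 CPM. Among mitochondrial transcripts the large ribosomal RNA mt:lrRNA took 16383 CPM in the knockdown and 9699 CPM in the control, a ratio of 1.69 (1.68 to 1.70), and mt:CoI 8329 and 6514 CPM. mt:CoII and mt:ND5 were lower, at ratios of 0.954 and 0.870, so these transcripts did not move together. Detoxification genes had a median of 0.19 over 16 members, with the cytochrome P450 gene Cyp6a8 at 8.63 and 4.64 CPM and the metallothionein gene MtnA at 6.26 and 3.45 CPM in knockdown and control.

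Ecdysone (8 members), purine synthesis (8), cytoskeleton (19), epithelial (15) and neuronal (5) genes had no member at 1.5-fold, where 3.57% of all genes were. Their median log2 ratios were −0.02, −0.07, 0.09, −0.00 and 0.13. Gart, a purine synthesis enzyme gene, was at 65.7 CPM in the knockdown and 79.2 CPM in the control, and Act5C, a cytoplasmic actin gene, at 4168 and 4571 CPM. Muscle genes had a median of 0.24 over 5 members and gonadal genes 0.23 over 6. With a minimum of 200 the gonadal median was 0.03, and among all genes above 0 in both libraries those of muscle and gonadal genes were 0.13 and 0.10. Lipid genes had LpR2, a lipoprotein receptor gene, at 20.3 CPM in the knockdown and 13.2 CPM in the control, and SREBP, the regulator of lipid synthesis, at 1352 and 1567 CPM.

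**Figure D4:**
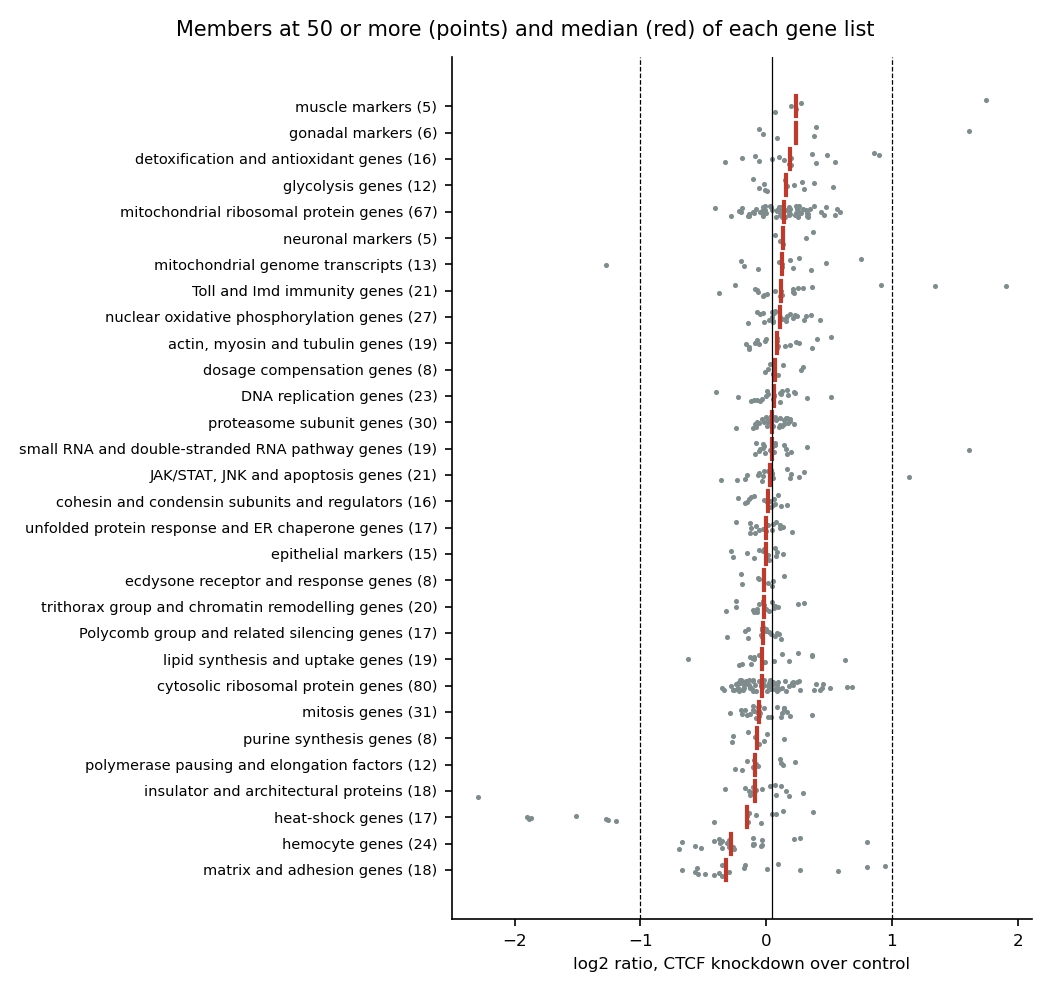
Log2 ratios of knockdown over control for the members of each gene list with at least 5 at the minimum (points; number in parentheses) and their median (red); the solid line is the median of all genes and the dashed lines 2-fold. Hemocyte (−0.28) and matrix genes (−0.32) lie lowest, and the Hsp70 copies form the cluster left of the 2-fold line.

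Ratios varied little between chromosome arms. The median log2 ratio was 0.04 on the X, 0.05 on 2L, 0.06 on 2R, 0.05 on 3L, 0.05 on 3R and 0.08 on chromosome 4. They varied more with gene length and level. Genes were divided into 5 bins of equal size. In the bin of the shortest genes, with exons covering 143 to 1213 bases in the annotation used here, the median was 0.15. Of its 1294 genes 16 were at least 2-fold higher and 3 lower, where 0.539% and 0.320% of all genes were. In the bin of the longest genes the median was −0.01, with 4 of 1294 genes higher and 3 lower. The median was 0.14 in the bin of the lowest levels and −0.00 in that of the highest. The part of length or level in any gene's ratio was not tested.

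**Figure D5:**
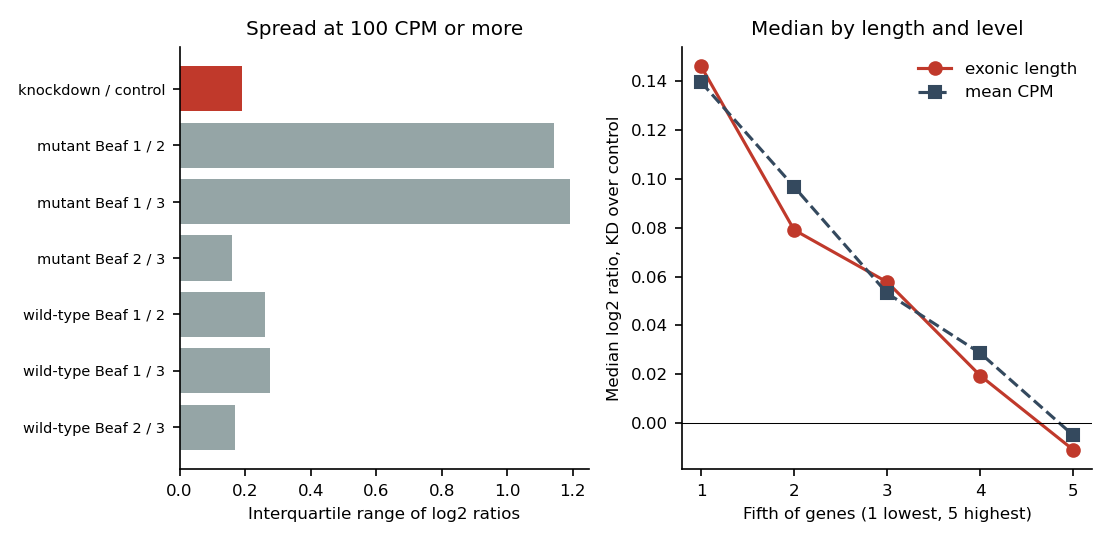
Left, the interquartile range of log2 ratios between the 2 CTCF libraries (red) and between libraries of 1 Beaf genotype (grey) over genes at 100 CPM or more. The Beaf libraries carry the numbers under which their values were deposited, which no label ties to a replicate. Right, the median log2 ratio in 5 bins of exonic length (circles) and of mean CPM (squares), from low to high; it is 0.15 and 0.14 in the lowest bins and −0.01 and −0.00 in the highest.

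Because CTCF sits at insulators, the genes next to those with large ratios were looked up, counting as neighbours the nearest genes at the minimum on the same arm. Of 53 genes at 2-fold on the arms, 16 (30.2%) had a neighbour at least 1.5-fold different in the same direction and 1 (1.89%) in the opposite one, against 4.45% and 2.59% of all 6454 genes on the arms. Without the Hsp70 copies the counts were 11 of 47 (23.4%) and 1 of 47 (2.13%). Neighbours that were both at 2-fold, such as CG13692 and BBS8, were counted from each side. The counts are therefore not of independent genes, and the part of CTCF in them was not tested. CG13692 and BBS8, a subunit of a ciliary transport complex, lie side by side on 2L and were both lower, BBS8 at 1.73 CPM in the knockdown and 4.71 CPM in the control. CG33177, CG33178 and Cox17 follow each other on the X and were all higher, at 38.7, 29.0 and 31.4 CPM in the knockdown, against 17.7, 14.4 and 18.8 CPM in the control.

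AttD and CG43175 on 3R were both higher, and Mlc2 stood beside the adenosine receptor gene AdoR (log2 ratio 0.95). The genes beside IFT52, CG31637 and COX5B, had log2 ratios of −0.09 and 0.36, and those beside CG6126, sra and mtSSB, 0.15 and 0.32. Those beside stj, Cpr50Cb and fl(2)d, had 0.21 and −0.01, and those beside sgll, CG2641 and CG17816, −0.46 and 0.03. Reads of overlapping neighbours can be shared where counting ignores strand, as for CG3358 and mim or CG34033 and CG30001, and this was not tested. Both of these pairs are in the counts above.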

How the data were processed

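RNA-seq of S2 cells was deposited as whole-number values per gene. The authors' counts in the knockdown column, and in the mutant Beaf columns, show no normalization. The deposited control column, like the wild-type Beaf columns, holds a signal, namely reads multiplied by 1 factor per column and rounded, as read from the values: the totals of both columns of the CTCF table differ by 157, and division by 1.297 gave whole reads (within 0.5 of the deposited value) for 99.99% of positive values, against 77.1% by chance. Per the submitters' processing notes, the tools included CASAVA 1.8, BWA and HTSeq; genome build, annotation and strand setting were not given in the sources used here. The labels give different TruSeq preparations, 1 without poly-A selection, and do not say which library had which.

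The last 5 rows, of unassigned reads (54.2% of the knockdown and 29.7% of the control library), were left out and values were scaled to CPM over gene rows. Genes with a value of 50 or more in the larger column were used. Intervals of ratios are exact (Clopper-Pearson) at 95% on knockdown counts and recovered control reads, and cover counting error only, since reads without molecular identifiers are not independent molecules. A fold of 2 replaces a test. Symbols matched 14605 of 15438 IDs (94.6%), and 868 of 951 entries of 33 gene lists matched. Chromosomes, neighbours and exonic lengths come from annotation BDGP6.54, possibly not that of the authors, so no coordinates are printed.

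Named were CTCF, the insulator list, the 12 highest and 12 lowest genes with a symbol by the interval end nearest to 1, up to 4 widest members and the most abundant member of each other list, and the 10 genes with most reads. The genes at 100 CPM among those at 2-fold, and others given beside a neighbour or a group, were chosen after their values were seen. The members and lists were chosen with earlier results of these data known. Calculations used edgeR 4.0.16 (TMM factors only) in R 4.3.3, with scipy 1.17.1, numpy 2.4.6, pandas 2.3.3 and matplotlib 3.10.9 under Python 3.11.15, and were tested on simulated data. Alternatives were other scalings, minimums and gene sets. Promoter motifs and GC content, which need a genome sequence, were not analysed here.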

Additional observations from a re-analysis of the deposited data

Results flagged for a closer look

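Reads that did not align, which the comparison does not use, made up 45.1% of the knockdown library, above the 18.4% of its control and the 0.790% to 10.4% of the Beaf-line libraries, and their part in the ratios was not tested.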

How the results depend on the processing

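The counts at 2-fold depended on the minimum. With a minimum of 20 there were 80 higher and 40 lower genes, with 200 there were 14 and 13, and among all genes above 0 in both libraries 444 and 188; the cause was not tested. TMM and median-of-ratios scaling shifted all log2 ratios by −0.06 and gave 30 higher and 23 lower genes each, and with them the median of the matrix list was −0.39 and −0.38. Centring within 5 bins of exonic length, added after the data were seen, gave 26 and 23, protein-coding genes alone 30 and 22, recovered control reads 38 and 19, and Hsp70 summed to 1 gene 37 and 17. The log2 ratio of CTCF stayed between −2.35 and −2.28 in these settings. The medians of the hemocyte and heat-shock lists stayed between −0.34 and −0.26 and between −0.28 and −0.15, and that of the matrix list was −0.18 among all genes above 0. Of 30 list medians 9 changed sign under some setting: those of the cohesin, small RNA, JAK/STAT, unfolded protein, ecdysone, proteasome, replication and epithelial lists, all near 0, and that of mitochondrial transcripts, at −0.02 when centred by length. Of 872 values of named genes recomputed, 762 stayed within their counting interval, and none of the named genes at 2-fold reversed. No paired analysis was possible because each side had 1 library, and no library could be left out. The promoter motif and GC descriptions were not run.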
